A study of Mus musculus with 23 samples.

Results

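The mitochondrial respiratory chain and ATP synthase are built from subunits encoded in the nucleus and in the mitochondrial genome. Members were the gene symbols that begin with Ndufa, Ndufb, Ndufc, Ndufs or Ndufv (Ndufaf assembly factors left out), Uqcr, Cox4 to Cox8 or Atp5, together with Cyc1 and Sdha to Sdhd. The rule used names and no measured values. It found 86 of the 20308 genes in the table, of which 82 are subunits of complexes I to V. They are 36 of complex I, 4 of complex II, 9 of complex III, 18 of complex IV and 15 of complex V, with Ndufa4 counted in complex IV, the complex to which its protein is now assigned. The other 4 are Cox7a2l, known for joining complexes III and IV, Ndufa4l2, a relative of Ndufa4, and Atp5s and Atp5sl, which share the Atp5 prefix but are not structural subunits of ATP synthase.

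RNA was sequenced from the ventral prostate of C57BL/6J mice in 23 libraries, with each library taken as 1 mouse. The mice ate a folic acid enriched diet (24 mg/kg) or a control diet (4 mg/kg) from in utero onwards. Glands came from mice left intact at 7 weeks of age (4 on each diet), or 3 d after castration at that age (4 on folic acid, 3 on control) or 10 d after it (4 on each). Castrated mice were therefore older than intact ones and no group was sham-operated, so surgery, age and androgen loss cannot be told apart. No label names a litter, so litter and diet cannot be told apart either.

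Electrons from NADH enter the chain at complex I and those from succinate at complex II. They pass through ubiquinone to complex III and through cytochrome c to complex IV, where oxygen is reduced, while the proton gradient drives complex V, the ATP synthase. The prostate epithelium is known for secreting citrate, and it needs androgen to keep its cells and its secretion.

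The libraries held 6381501 to 15615993 counts. Sbp, which encodes a secreted spermine-binding protein of the mouse prostate, took 49.3% to 59.8% of the counts in intact libraries, 26.2% to 38.8% at 3 d and 4.78% to 16.2% at 10 d. Summed CPM of 9 luminal epithelial markers lay between 4080 and 6910 in the 23 libraries, and 8 seminal vesicle markers summed to at most 1.84 CPM. CPM are counts per 1000000 of library size scaled by TMM, a method that sets the bulk of genes level, so every log2 change below is relative to the bulk of genes. Against the whole library, Sbp included, the picture was the reverse. The members held 0.419% to 0.487% of all counts in the 8 intact libraries and 0.778% to 1.19% in the 8 libraries at 10 d. Of the counts outside Sbp, the members' mean share on folic acid was 1.04% in intact mice, 0.899% at 3 d and 0.959% at 10 d. On control it was 0.942%, 0.895% and 1.05% in the same order, so no such rise was seen outside Sbp on both diets. In bulk tissue, fewer cells of a type and less RNA per cell cannot be told apart.

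Of the 86 members, 78 passed the filter on low counts. A member is said to have fallen or risen, or to be called, where its Benjamini-Hochberg adjusted p in edgeR's quasi-likelihood test, taken over all 13412 tested genes, was under 0.05. After castration, the respiratory chain genes that changed were nearly all lower. On the folic acid diet 25 of 78 members fell and 1 rose at 3 d, against 8.27% of all tested genes that fell and 6.07% that rose. The members' median log2 change was -0.51, and that of all tested genes 0.01. On the control diet 10 of 78 fell at 3 d, against 6.15% of all tested genes, with a median of -0.33 for the members and -0.01 for all tested genes. No member rose there in edgeR (3.83% of all tested genes did), where 0 were higher at an unadjusted p under 0.05, nor in DESeq2.

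At 10 d more members fell on the folic acid diet than on the control diet, and no member was called in the test of that difference. On the folic acid diet 24 members fell and 1 rose, against 11.7% and 10.2% of all tested genes, and the median log2 change was -0.41 for members and 0.07 for all tested genes. On the control diet 3 fell, against 9.45% of all tested genes, with medians of 0.02 and 0.05. No member rose in that comparison in edgeR (7.15% of all tested genes did), where 3 were higher at an unadjusted p under 0.05, nor in DESeq2. The comparisons at 3 d and 10 d on a diet share their intact libraries. Of the 78 members, 44 were lower by the test in none of the 4 comparisons, a count that was not made over all tested genes. The interaction of diet and castration at 10 d called 0 of 78 members in edgeR (13 at an unadjusted p under 0.05, smallest adjusted p 0.869) and 0 in DESeq2.

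Several of these counts rest on single libraries. Without folic acid intact replicate 2 the count of members lower was 11 at 3 d and 11 at 10 d on folic acid. At 10 d it was 13, 12 and 13 without folic acid intact replicate 3, folic acid 10 d replicate 2 and folic acid 10 d replicate 3 in turn. On the control diet it was 3 at 3 d without control 3 d replicate 3. At 10 d on the control diet it was 8 without control 10 d replicate 2, and 1 without control intact replicate 2, control 10 d replicate 1 or control 10 d replicate 3. The single member that rose on the folic acid diet, Atp5s, lost that call at both times without folic acid intact replicate 2 or 3. Not every call named below was examined in this way. Left out were the castration calls of Ndufc1, Ndufb9, Ndufab1, Ndufv1, Uqcrq, Uqcrc1 and Atp5d. So were those of Uqcr11 and Atp5g1 on folic acid, Cox5a at 3 d and Atp5e at 10 d. Outside the members, Gabpb1 at 10 d on folic acid, and Hk2 at 3 d and Timm23 at 10 d on control, were not examined either.

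**Figure D1:**
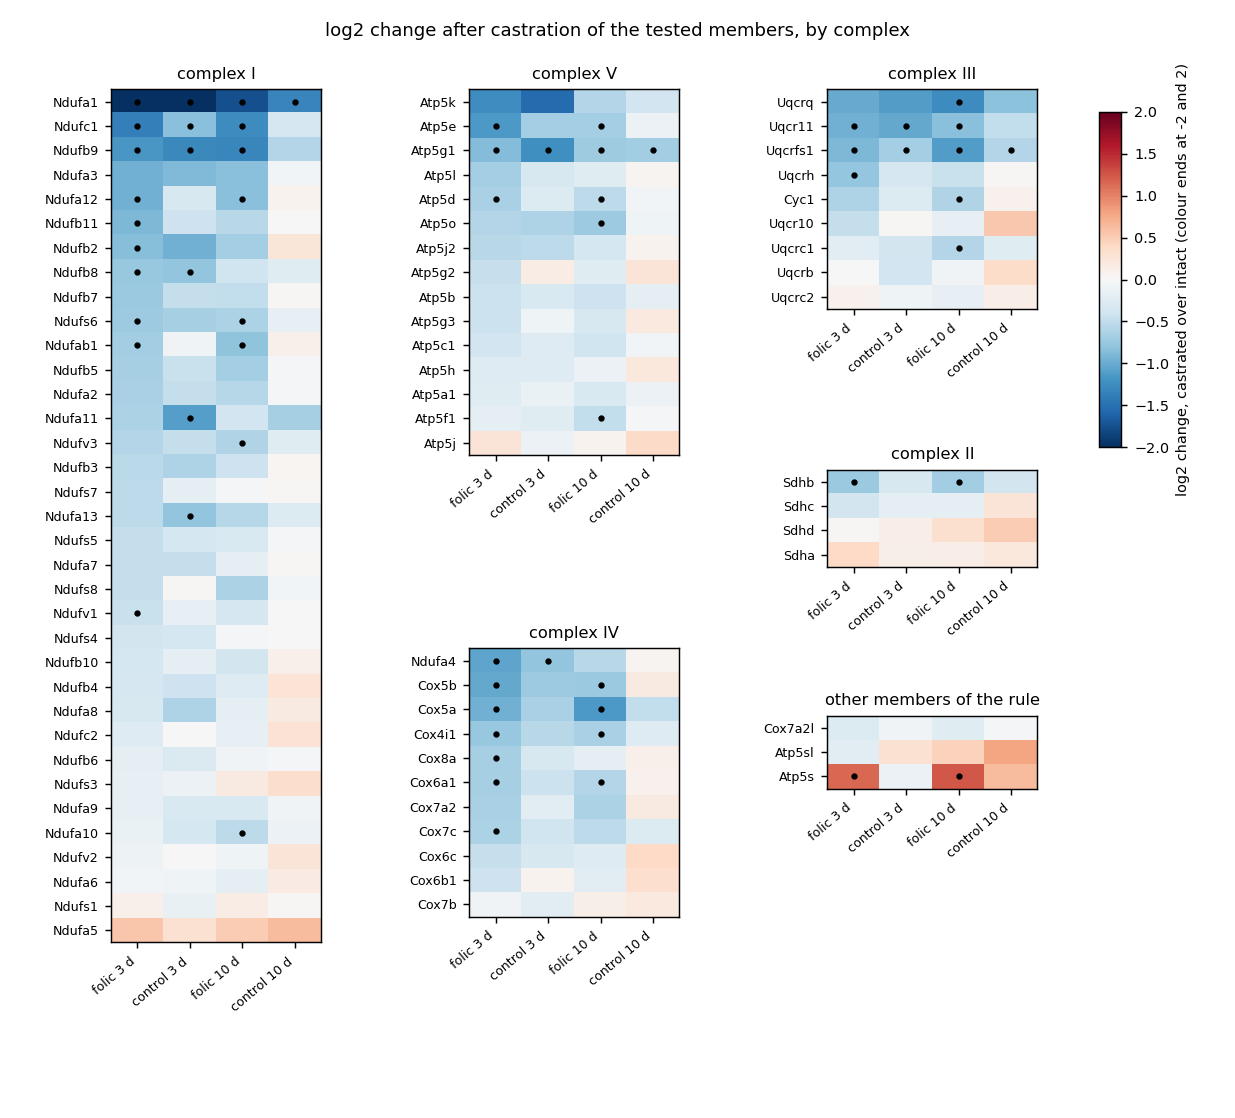
Colour gives the log2 change, castrated over intact, of 77 of the 78 tested members in 4 comparisons (columns), with genes in rows by complex and a black dot where the adjusted p is under 0.05. Blue, lower after castration, fills most of both 3 d columns and the folic acid 10 d column, the control 10 d column is pale apart from Ndufa1 and a few others, and Sdha and Ndufa5 are pale red throughout.

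Complex I, the NADH dehydrogenase, held the member with the largest fall. Ndufa1, a small accessory subunit of its membrane arm, is on chromosome X (37187588 to 37191163, minus strand, GRCm38). On the folic acid diet its level was 90.5, 108, 105 and 102 CPM in intact mice, 25.3, 23.6, 24.6 and 12.8 CPM at 3 d and 20.6, 26.4, 35.2 and 38.1 CPM at 10 d. On the control diet it was 67.8, 77.4, 95.5 and 77.6 CPM in intact mice, 21.1, 11.8 and 24.1 CPM at 3 d and 26.9, 42.3, 26.5 and 31.8 CPM at 10 d. No castrated library reached any intact one. The log2 change at 3 d was -2.23 ± 0.23 (SE, adjusted p = 2.81e-08) on folic acid and -2.07 ± 0.25 (adjusted p = 6.2e-07) on control, by edgeR's quasi-likelihood test. At 10 d it was -1.76 ± 0.23 (adjusted p = 7.08e-07) and -1.32 ± 0.22 (adjusted p = 4.55e-05) in the same test and order.

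The RefSeq promoter of Ndufa1 is shown because it is the member that changed most, beside promoters of 3 members called in complexes III, IV and V, chosen after their values were seen. Each runs for 250 bases up to the base before the start site, on the gene's strand, in build GRCm38.p6. Capitals mark exact matches, on either strand, to 3 motifs linked to mitochondrial genes: GCGCATGCGC (NRF1), CCGGAAG (the ETS factors, GABP among them) and AAGATGGC (YY1).
Ndufa1, chrX:37191239-37191488, minus strand: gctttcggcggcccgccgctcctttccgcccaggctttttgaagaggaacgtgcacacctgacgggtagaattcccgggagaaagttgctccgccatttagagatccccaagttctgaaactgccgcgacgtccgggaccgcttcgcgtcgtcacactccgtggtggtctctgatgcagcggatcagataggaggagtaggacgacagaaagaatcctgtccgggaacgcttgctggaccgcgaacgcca
Uqcr11, chr10:80406822-80407071, minus strand: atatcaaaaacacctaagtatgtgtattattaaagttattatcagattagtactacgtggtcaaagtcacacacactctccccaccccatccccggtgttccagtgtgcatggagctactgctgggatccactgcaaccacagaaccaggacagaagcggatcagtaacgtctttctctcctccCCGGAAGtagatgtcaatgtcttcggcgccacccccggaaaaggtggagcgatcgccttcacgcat
Cox6a1, chr5:115348959-115349208, minus strand: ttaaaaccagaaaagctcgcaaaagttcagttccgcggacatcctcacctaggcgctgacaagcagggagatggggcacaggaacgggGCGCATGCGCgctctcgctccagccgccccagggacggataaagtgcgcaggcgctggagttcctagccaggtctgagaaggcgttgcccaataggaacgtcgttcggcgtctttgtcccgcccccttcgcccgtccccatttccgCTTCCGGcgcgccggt
Atp5e, chr2:174464102-174464351, minus strand: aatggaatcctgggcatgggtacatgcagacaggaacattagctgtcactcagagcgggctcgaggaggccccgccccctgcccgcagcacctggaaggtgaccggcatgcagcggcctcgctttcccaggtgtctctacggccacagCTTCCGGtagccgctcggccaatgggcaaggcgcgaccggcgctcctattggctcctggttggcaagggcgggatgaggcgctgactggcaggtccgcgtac

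Ndufa1 carries none of the 3 letter strings in this window, Uqcr11 and Atp5e carry the ETS string and Cox6a1 carries both the NRF1 and the ETS strings. RefSeq promoters were matched by symbol for 67 of the 86 members and searched from 250 bases before to 50 bases after the start. The NRF1 string stood in 5 of 67 members (7.46%), against 1.07% of all 27025 genes with a RefSeq promoter. The ETS string stood in 16 (23.9%), against 9.93% of those genes, and the YY1 string in 9 (13.4%), against 3.19%. Tested genes hold the strings more often than all genes do. Over the 63 tested members with a promoter the shares were 7.94% for NRF1, 25.4% for ETS and 14.3% for YY1, against 2.22%, 18.8% and 4.94% of the 10014 other tested genes. In 0 of the 67 members did matches to 2 of these strings overlap. Among tested members with a promoter, 11 of 28 that fell at least once (39.3%) held any of the strings, as did 16 of 35 that never fell (45.7%). The promoters shown for complexes III, IV and V all hold a string, while those of Uqcrfs1, Cox5a, Ndufa4 and Atp5g1, also called, hold none. A match is a description of the letters and not a binding site.

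On folic acid the next complex I members by size of change, Ndufc1 and Ndufb9, were also accessory subunits. Ndufc1 was at 62.8, 103, 77.7 and 67.4 CPM in intact mice on folic acid, at 30.9, 35.6, 34.3 and 19.4 CPM at 3 d and at 30.5, 24.7, 28.5 and 46.1 CPM at 10 d. Its levels on the control diet were 64.4, 63.6, 49.5 and 35.3 CPM in intact mice, 29.0, 25.7 and 34.4 CPM at 3 d and 42.1, 57.3, 36.5 and 33.3 CPM at 10 d. All castrated libraries were below all intact ones on folic acid, while at 10 d on the control diet the groups overlapped. Ndufc1 fell on folic acid at 3 d (log2 -1.37 ± 0.23, adjusted p = 8.34e-05) and 10 d (-1.26 ± 0.23, adjusted p = 0.000117), and on control at 3 d (-0.84 ± 0.25, adjusted p = 0.0261). At 10 d on control its log2 change was -0.33 ± 0.22 (adjusted p = 0.361, edgeR). Ndufb9 followed the same pattern of calls, with log2 changes of -1.16 and -1.30 on folic acid at 3 d and 10 d and of -1.29 and -0.58 on control, the last not called.

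In complex I as a whole, 11 of 36 members fell at 3 d on folic acid and 6 on control, and 9 on folic acid and 1 on control at 10 d. The shares were 30.6% and 16.7% at 3 d, above the 8.27% and 6.15% of all tested genes, and 25% and 2.78% at 10 d, above 11.7% on folic acid and below 9.45% on control. The 7 core subunits, which carry the flavin, the iron-sulfur clusters and the quinone site, had median log2 changes of -0.45 at 3 d and -0.08 at 10 d on folic acid, and of -0.14 and 0.02 on control. The 29 accessory subunits had medians of -0.59 and -0.49 on folic acid and of -0.47 and -0.02 on control. Transcripts of the core subunits were 870 to 2626 nucleotides (nt) long and those of the accessory subunits 382 to 2448 nt. Change went with transcript length, as set out below, and its part in this difference was not tested. Ndufv1, a core subunit that binds NADH and flavin, fell at 3 d on folic acid (log2 -0.45). Ndufab1, the mitochondrial acyl carrier protein, fell on folic acid (-0.70 at 3 d and -0.81 at 10 d) and gave -0.07 and 0.11 on control, without a call. Ndufa5 was the member of complex I with the highest log2 change in all 4 comparisons, 0.31 to 0.64, with wide spread and no call.

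**Figure D2:**
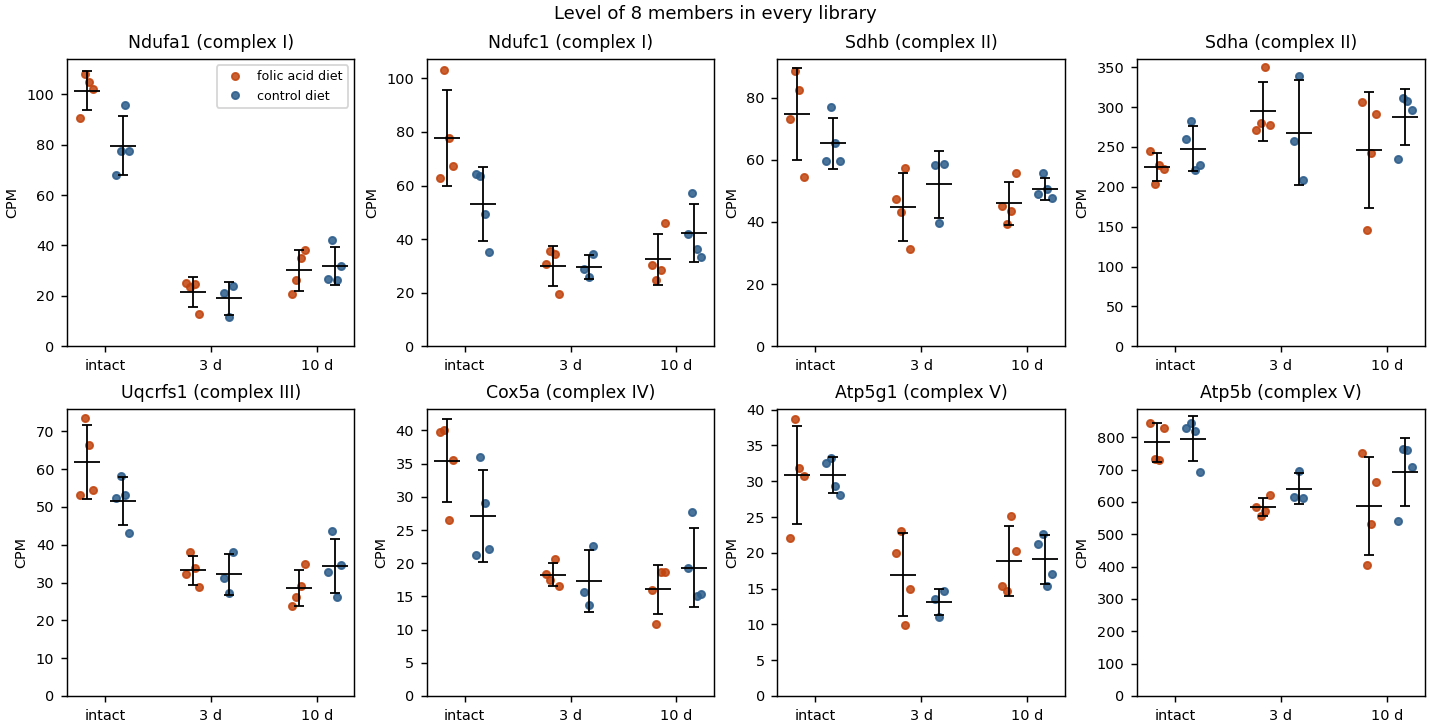
CPM of 8 members in each of the 23 libraries, as points, by state on the x axis, with folic acid left of control, and with the group mean and SD in black. Ndufa1, Uqcrfs1 and Atp5g1 are lower in castrated groups on both diets, while Sdha shows no such step.

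Complex II, the succinate dehydrogenase, is the only one of the 5 without a mitochondrially encoded subunit, and its members did not move together. Sdhb, the iron-sulfur subunit (chromosome 4, 140961203 to 140979193, plus strand), was at 73.0, 88.5, 82.5 and 54.6 CPM in intact mice on folic acid, 47.5, 43.1, 57.4 and 31.2 CPM at 3 d and 45.1, 39.5, 43.5 and 55.9 CPM at 10 d. Folic acid intact replicate 4 lay inside the range of the castrated groups, and the other 3 intact libraries lay above it. On control, Sdhb was at 59.6, 77.0, 65.3 and 59.6 CPM in intact mice, 58.3, 39.7 and 58.5 CPM at 3 d and 48.9, 55.8, 50.5 and 47.8 CPM at 10 d. It fell on folic acid at 3 d (log2 -0.74 ± 0.18, adjusted p = 0.00511) and 10 d (-0.70 ± 0.18, adjusted p = 0.00507, edgeR), with -0.33 and -0.37 on control, not called.

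Sdha, the flavin-bearing subunit that oxidizes succinate, averaged 225 ± 17.3 CPM in intact mice, 295 ± 37.0 at 3 d and 246 ± 72.2 at 10 d on folic acid (SD, n = 4 each). On control it averaged 248 ± 28.6 (n = 4), 268 ± 66.4 (n = 3) and 287 ± 35.5 CPM (n = 4) in the same order of states. Its log2 change was between 0.11 and 0.39 in the 4 comparisons, with adjusted p values from edgeR of 0.161 to 0.803. Sdhc and Sdhd, the membrane anchors, were not called either, and Sdhd had positive log2 changes of 0.03 to 0.50. The summed level of complex II was 382 ± 21.2 CPM in intact mice, 411 ± 50 at 3 d and 377 ± 73.7 at 10 d on folic acid. On control it was 389 ± 39.5, 393 ± 38.0 and 435 ± 41.8 CPM. Transcripts of complex II were 1142 to 2900 nt long, and the part of length here was not tested.

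Complex III, the cytochrome bc1 complex, was represented by 9 tested members. On folic acid 3 fell at 3 d (33.3%) and 5 at 10 d (55.6%), against 8.27% and 11.7% of all tested genes. On control 2 fell at 3 d (22.2%, against 6.15%) and 1 at 10 d (11.1%, against 9.45%). Uqcrfs1, the Rieske iron-sulfur protein (chromosome 13, 30540308 to 30545362, minus strand), fell in all 4 comparisons. Its levels on folic acid were 53.2, 73.5, 66.5 and 54.6 CPM in intact mice, 32.2, 38.0, 33.9 and 28.7 CPM at 3 d and 23.9, 26.1, 29.1 and 35.0 CPM at 10 d. On control they were 52.3, 58.2, 53.1 and 43.0 CPM in intact mice, 31.2, 27.3 and 38.1 CPM at 3 d and 32.9, 43.5, 26.1 and 34.7 CPM at 10 d. The groups overlapped only in control 10 d replicate 2, at 43.5 CPM, above control intact replicate 4. The log2 change on folic acid was -0.90 ± 0.18 at 3 d (adjusted p = 0.000698) and -1.12 ± 0.18 at 10 d (adjusted p = 2.45e-05, edgeR).

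On control the log2 change of Uqcrfs1 was -0.68 ± 0.20 at 3 d (adjusted p = 0.0217) and -0.59 ± 0.18 at 10 d (adjusted p = 0.0195, edgeR). Those 2 calls depended on single libraries. The 3 d call was lost without control intact replicate 2 or 3 or control 3 d replicate 1 or 3, with adjusted p values of up to 0.153. The 10 d call was lost without control intact replicate 2, control 10 d replicate 1 or control 10 d replicate 3, with values of up to 0.0876. Uqcr11, the smallest subunit of the complex, whose promoter is shown above, was at 30.7, 31.6, 29.8 and 25.0 CPM in control intact mice, 17.7, 11.6 and 13.7 CPM at 3 d and 19.0, 30.8, 16.5 and 17.3 CPM at 10 d. It fell at 3 d on control (log2 -1.03 ± 0.28, adjusted p = 0.0164) and at both times on folic acid (-0.96 and -0.84). Without control 3 d replicate 3 or 4, its control 3 d call was lost (adjusted p = 0.108 and 0.0633, edgeR).

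Uqcrq, a small subunit named as a ubiquinone-binding protein, had the largest fall of complex III at 10 d on folic acid, at log2 -1.25. Cyc1, cytochrome c1, averaged 46.2 ± 5.11 CPM in intact mice, 30.3 ± 2.33 at 3 d and 30.4 ± 10.7 at 10 d on folic acid (SD, n = 4 each). Its call at 10 d was at the threshold (log2 -0.60, adjusted p = 0.0493, edgeR) and was lost on leaving out 16 of the 23 libraries in turn, 10 of them of other groups, with adjusted p values of up to 0.18, the highest without folic acid 10 d replicate 2. The core proteins Uqcrc1 and Uqcrc2 differed in their calls, with Uqcrc1 lower at 10 d on folic acid (-0.59) and Uqcrc2 called in none.

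Complex IV, cytochrome c oxidase, had the highest share of members lower at 3 d on folic acid, 7 of 11. That was 63.6%, against 8.27% of all tested genes. Among these, the calls of Cox4i1, Cox6a1 and Cox8a were lost without folic acid intact replicate 2. They were also lost with the length trend removed, as set out below. At 10 d on folic acid 4 of 11 fell (36.4%, against 11.7% of all tested genes). On control 1 of 11 fell at 3 d (9.09%, against 6.15%) and 0 of 11 at 10 d (against 9.45%). Cox5a, a subunit of the matrix side, was at 39.7, 40, 26.5 and 35.6 CPM in intact mice on folic acid, 18.4, 17.5, 20.6 and 16.5 CPM at 3 d and 15.9, 10.9, 18.7 and 18.7 CPM at 10 d. On control it was at 21.2, 36, 29.1 and 22.2 CPM in intact mice, 15.6, 13.7 and 22.6 CPM at 3 d and 19.3, 27.7, 15 and 15.3 CPM at 10 d. On folic acid no castrated library reached an intact one, and on control the groups overlapped. Cox5a fell on folic acid by edgeR at 3 d (log2 -0.96 ± 0.24, adjusted p = 0.00519) and at 10 d (-1.14 ± 0.24, adjusted p = 0.000584). On control its log2 changes of -0.65 and -0.49 had adjusted p values of 0.111 and 0.16.

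Ndufa4 was called on both diets at 3 d. Its levels on folic acid were 54.4, 71.4, 52.8 and 56.9 CPM in intact mice, 30.8, 29.1, 32.2 and 21.6 CPM at 3 d and 42.2, 39.0, 29.2 and 50.8 CPM at 10 d. On control they were 46.1, 46.4, 49.7 and 47.4 CPM in intact mice, 25.3, 27.3 and 29.4 CPM at 3 d and 42.0, 80.1, 33.9 and 40.7 CPM at 10 d. The 3 d libraries lay below every intact one on both diets, and control 10 d replicate 2, at 80.1 CPM, lay above them all. The log2 change at 3 d was -1.05 ± 0.21 on folic acid (adjusted p = 0.000724) and -0.79 ± 0.23 on control (adjusted p = 0.0223, edgeR). The control call was lost without control intact replicate 3, control 3 d replicate 1 or control 3 d replicate 3, with adjusted p values of up to 0.0899.

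Of the ubiquitous isoforms of complex IV, Cox4i1 and Cox6a1 fell at both times on folic acid (log2 -0.76 and -0.65 for Cox4i1, -0.66 and -0.59 for Cox6a1) and Cox8a at 3 d on folic acid (-0.67). Without folic acid intact replicate 2 each of these 5 calls was lost, with adjusted p values of 0.0524 to 0.109 in edgeR. Cox7a2, at log2 -0.65 and -0.63 on folic acid, was not called. Cox7a2l had log2 changes of -0.27 to -0.03 with no call. Emc8 overlaps Cox4i1 on the other strand by 352 bases.

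The isoforms of complex IV that are known from muscle, heart, lung or testis were below the filter. Cox7b2 and Cox8c had no count in any of the 23 libraries, which allows up to 0.47 counts per 1000000 in the smallest library (3 counts; counting error only). Cox8b had 53 counts, Cox6a2 had 38 and Cox7a1 had 13 in control intact replicate 2, and at most 14, 1 and 7 in any other library. That library also held 5600 CPM of 15 skeletal muscle markers, against 101 to 169 CPM in the other 3 control intact libraries. Cox4i2, the hypoxia-linked isoform of Cox4i1, had at most 12 counts in a library, Cox6b2 at most 19 and Ndufa4l2 at most 15.

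Complex V, the ATP synthase, had 15 tested members, of which 3 fell at 3 d and 5 at 10 d on folic acid and 1 and 1 on control. On folic acid these were 20% and 33.3%, against 8.27% and 11.7% of all tested genes. On control the 1 of 15 (6.67%) was near the 6.15% of all tested genes lower at 3 d and below the 9.45% at 10 d. Atp5g1 (chromosome 11, 96068852 to 96075670, minus strand), 1 of 3 genes for the ring subunit c, fell in all 4 comparisons. It was at 22.1, 38.7, 31.9 and 30.8 CPM in intact mice on folic acid, 20, 23.1, 9.85 and 14.9 CPM at 3 d and 15.3, 14.7, 25.2 and 20.3 CPM at 10 d. On control it was at 32.6, 33.3, 29.4 and 28.1 CPM in intact mice, 13.6, 11.1 and 14.7 CPM at 3 d and 21.3, 22.6, 15.4 and 17.1 CPM at 10 d. On control every castrated library lay below every intact one, and on folic acid intact replicate 1 lay among the castrated libraries. The log2 change was -0.86 ± 0.24 at 3 d (adjusted p = 0.0127) and -0.71 ± 0.24 at 10 d (adjusted p = 0.0281) on folic acid, and -1.23 ± 0.26 at 3 d on control (adjusted p = 0.00158, edgeR).

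At 10 d on control the log2 change of Atp5g1 was -0.69 ± 0.24 (adjusted p = 0.0394, edgeR), and leaving out any single library of those 2 groups other than control 10 d replicate 2 lost this call, with adjusted p values of up to 0.118. The other ring genes, Atp5g2 and Atp5g3, were called in no comparison. Reads shared among these 3 related genes were divided by estimate. Per kilobase of transcript, the ring gene Atp5g1 was among the lowest of the tested members (11.5 CPM per kb in intact mice of either diet). That value rests on a length of 2676 nt, the median over its 4 coding transcripts. Atp5g2 was taken at 586 nt and Atp5g3 at 718 nt, and a shorter length would give Atp5g1 a higher level. The highest levels per kb in folic acid intact mice were those of Cox4i1 (585 CPM per kb), Cox6c (488) and Atp5b (409).

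Atp5e, the small epsilon subunit of the central stalk, fell on folic acid at 3 d (log2 -1.15 ± 0.24, adjusted p = 0.00135) and 10 d (-0.68 ± 0.24, adjusted p = 0.0393, edgeR). Its folic acid levels averaged 40.2 ± 10.8 CPM in intact mice, 18.2 ± 2.35 at 3 d and 25.1 ± 7.04 at 10 d (SD, n = 4 each). Atp5d, the delta subunit of the same stalk, fell in the same 2 comparisons (-0.64 and -0.53), and Atp5o, which links the catalytic head to the outer stalk, fell at 10 d on folic acid (-0.72, adjusted p = 0.0184). The Atp5o call was lost without folic acid intact replicate 3 or without folic acid 10 d replicate 1, 2 or 3, at adjusted p values of up to 0.0652. Neither subunit of the catalytic head was called. Atp5b, the catalytic beta subunit, averaged 784 ± 59.7 CPM in intact mice, 584 ± 28.7 at 3 d and 588 ± 151 at 10 d on folic acid, with log2 changes of -0.43 and -0.42 and adjusted p values of 0.0807 and 0.0671 (edgeR, n = 4 each).

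Atp5s, which is no subunit of the synthase, was the only member that rose. It was low, at 5.16, 2.99, 2.04 and 5.86 CPM in intact mice on folic acid, 9.41, 12.8, 5.29 and 7.76 CPM at 3 d and 11.3, 7.95, 8.37 and 10.2 CPM at 10 d. At 10 d every castrated library on folic acid lay above every intact one, and at 3 d replicate 3 did not. The log2 change was 1.15 ± 0.38 at 3 d (adjusted p = 0.0408) and 1.24 ± 0.38 at 10 d (adjusted p = 0.0175, edgeR). Leaving out folic acid intact replicate 2 or 3 lost both calls, with adjusted p values of up to 0.135, and the 3 d call was also lost without folic acid 3 d replicate 1, 2 or 4, at up to 0.151.

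**Figure D3:**
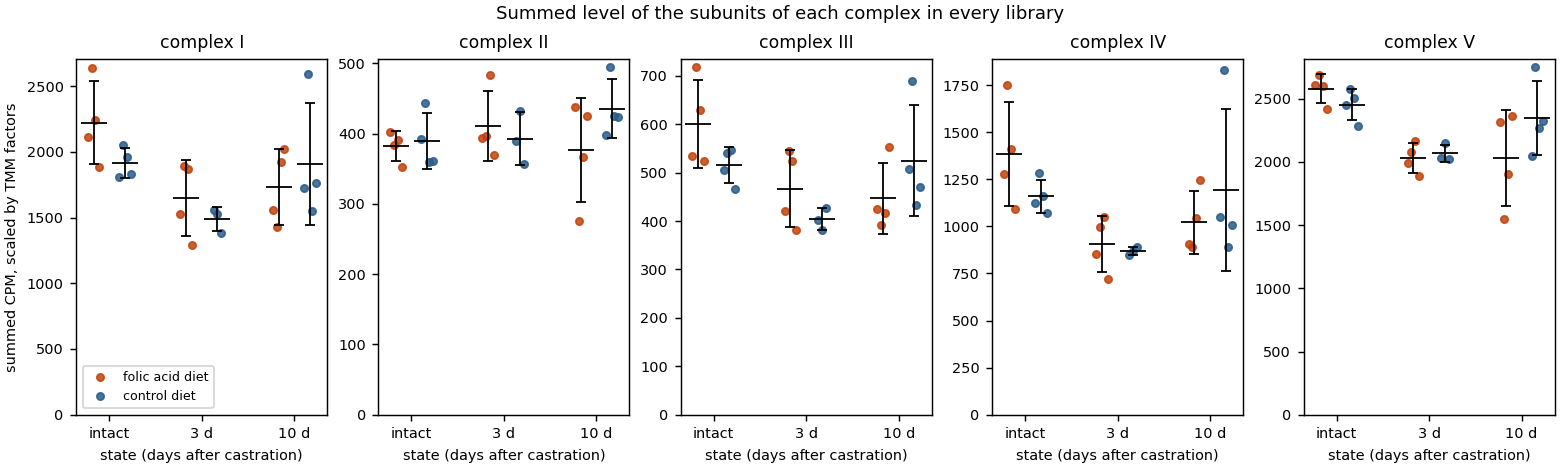
Summed CPM of all members of each complex in every library, by state, with folic acid left of control, and with mean and SD in black. Complexes I, III, IV and V have lower means at 3 d than in intact mice on both diets and complex II does not, and control 10 d replicate 2 is the highest of its group in each complex.

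Between 3 d and 10 d after castration no member was called in edgeR on either diet, where 0.35% of all tested genes were called on control and 0.634% on folic acid. On control, 75 of 78 members were higher at 10 d than at 3 d in sign, with a median log2 change of 0.39 against 0.02 for all tested genes. There, 25 members had an unadjusted p under 0.05, the smallest adjusted p was 0.125, and DESeq2 called 3 members higher. Ndufb2 (log2 1.21 ± 0.32) and Ndufa4 (0.84 ± 0.23), each with an adjusted p of 0.125 in edgeR, had the smallest p values. Without control 10 d replicate 2 that median was 0.15. On folic acid the median was 0.10, 8 members had an unadjusted p under 0.05 and DESeq2 called none.

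Control 10 d replicate 2 stood apart in the level of the members. Their summed level was 8757 CPM in that library, against 5787 to 6261 CPM in the other 3 of its group. Complex IV alone summed to 1833 CPM in it, against 889.6 to 1052 CPM in the other 3. Without it, the median change of the members at 10 d on control was -0.19 in place of 0.02. The same library was also high in short genes that are not members, as set out below.

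Diet itself called no member in edgeR. In intact mice 0.0522% of all tested genes were called, and 68 of 78 members were higher on folic acid than on control in sign, with a median log2 difference of 0.20 against -0.02 for all tested genes. There 3 members had an unadjusted p under 0.05, and Ndufc1, at 77.7 ± 17.8 CPM on folic acid and 53.2 ± 13.8 CPM on control (SD, n = 4 each), had the smallest p (log2 0.55 ± 0.23, adjusted p = 0.756). At 3 d 0.0671% of all tested genes were called, and the members' median was 0.08, with 5 at an unadjusted p under 0.05 and Ndufa8 first (0.61 ± 0.22, adjusted p = 0.686). At 10 d 0.119% of all tested genes were called. The members' median was then -0.17, with 74 of 78 negative in sign, 5 at an unadjusted p under 0.05 and Ndufab1 first (-0.56 ± 0.23, adjusted p = 0.862).

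Over the mean of the 3 states 0.35% of all tested genes were called, and the members' median diet difference was 0.03, with 1 member at an unadjusted p under 0.05. DESeq2 called no member in any of these 4 diet comparisons. Without control 10 d replicate 2, the median difference at 10 d was 0.01.

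Whether the castration change differed by diet was tested as an interaction. At 3 d no gene was called (0%), the members' median was -0.12 and 1 had an unadjusted p under 0.05. At 10 d 0.0149% of all tested genes were called, the members' median was -0.40 against 0.02 for all tested genes, and 75 of 78 were negative in sign. Ndufc1 (-0.93 ± 0.32) and Ndufab1 (-0.92 ± 0.32) had the smallest p values, each with an adjusted p of 0.869 in edgeR. Without control 10 d replicate 2 the median was -0.22. Neither tool called a member in these tests.

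Transcript length moved with the results. Many members are short, and 32 of the 77 tested members with a known length were under 700 nt. On folic acid at 3 d these 32 had a median log2 change of -0.65, and the 271 other tested genes of that length had one of -0.45, with 31.2% and 19.9% lower. For members of 1500 to 3000 nt the median was -0.37, against -0.04 for 4919 other genes. On control at 3 d the medians under 700 nt were -0.41 for members and -0.29 for other genes. At 10 d they were -0.47 and -0.22 on folic acid, and 0.03 and 0.04 on control. Across members, Spearman's rho between length and log2 change was 0.38 at 3 d on folic acid, 0.27 at 3 d on control, 0.13 at 10 d on folic acid and 0.01 at 10 d on control, a description over 77 genes that share libraries.

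Members and short genes also deviated together in most libraries. In control 10 d replicate 2 the median deviation from the mean over libraries, on the log2 scale, was 0.61 for members and 0.54 for other genes under 700 nt. In folic acid intact replicate 2 those medians were 0.57 and 0.48. These are the 2 highest of 23 libraries. The medians had the same sign in 22, and in folic acid intact replicate 4 they were 0.09 and -0.06. In folic acid 10 d replicate 2 members were at -0.28 and short genes at -0.03. When each library's length trend among non-members was removed, a fit chosen after seeing the data, 13 members fell and 2 rose at 3 d on folic acid, 7 fell on control, and 16 fell on folic acid and 6 on control at 10 d. The members' median less that of all tested genes was then -0.20, -0.14, -0.27 and -0.07 in the same order. The share of all tested genes called was not counted in that fit. Of 26 castration calls examined in that fit for named members, 19 kept an adjusted p under 0.05 and 7 lost it. Those lost on folic acid were Cox6a1 at 3 d (log2 -0.21, adjusted p = 0.409) and 10 d (-0.33, 0.112), Cox8a at 3 d (-0.22, 0.38), Cox4i1 at 3 d (-0.39, 0.055) and Cyc1 at 10 d (-0.52, 0.0588). Those lost on control were Ndufa4 (-0.43, 0.125) and Uqcr11 (-0.68, 0.0613), both at 3 d (edgeR). Ndufa1 and Uqcrfs1 kept their calls in all 4 comparisons, with adjusted p values of Ndufa1 from 1.04e-07 to 3.17e-06 (edgeR). Atp5g1 kept its calls in the 2 control comparisons, the ones examined for it. The fit took Atp5g1 at 2676 nt, and its calls under a shorter length were not tested.

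**Figure D4:**
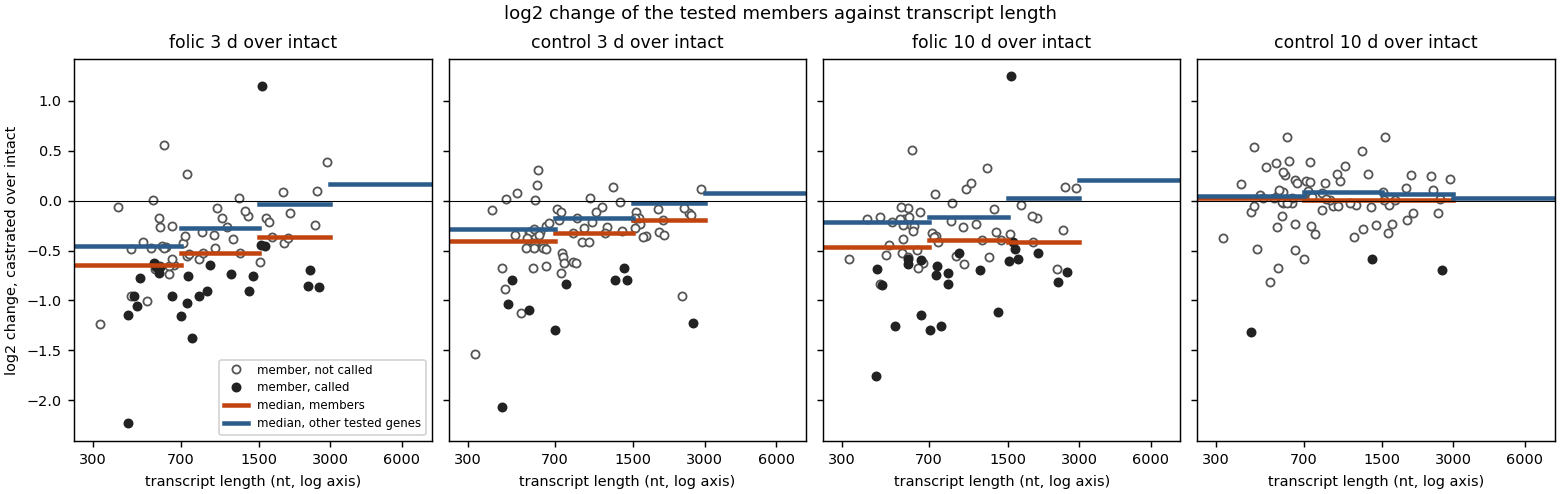
log2 change, castrated over intact, of the tested members (filled where called) against transcript length on a log axis, with the medians of members in orange and of other tested genes in blue by class of length. Short genes of both kinds lie lower at 3 d on both diets, the orange lines lie below the blue ones in the first 3 panels, and both lie close to 0 for control at 10 d.

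Markers of some other cells were also called after castration. The counts called stand against 8.27% of all tested genes lower at 3 d and 11.7% at 10 d on folic acid. On control 6.15% and 9.45% were lower. The shares higher were 6.07% and 10.2% on folic acid and 3.83% and 7.15% on control. The 11 macrophage markers summed to 139 to 181 CPM at 3 d and 145 to 355 CPM at 10 d on folic acid, against 57.5 to 97.1 CPM in intact mice. On control they summed to 204 to 261 CPM at 3 d and 161 to 261 CPM at 10 d, against 65.1 to 105 CPM in intact mice. None of these markers was at 0 in a whole group, and 4 to 7 of the 11 rose in each comparison. The 15 skeletal muscle markers summed to 16.2 to 110 CPM at 3 d and 6.94 to 97.9 CPM at 10 d on folic acid, against 63.8 to 200 CPM in intact mice. On control they summed to 26 to 119 CPM at 3 d and 12 to 29.1 CPM at 10 d, against 101 to 5600 CPM in intact mice. Of these 15, 2 fell at each time on folic acid, and 3 at 3 d and 11 at 10 d on control. Of 8 fibroblast markers 3 rose at 3 d on control, and at 10 d 3 rose and 2 fell on folic acid and 3 rose and 3 fell on control. Of 7 tested pericyte markers 2 rose at 10 d on folic acid and 1 at 3 d on control, and 1 of 7 endothelial markers rose at 10 d on folic acid. Of the 9 luminal markers 2 fell in each comparison and 3 rose at 10 d on control. Of 4 basal markers, 1 rose at 10 d on folic acid. A single called marker is 14.3% of 7 and 25% of 4, so shares of lists this small are coarse. None of 9 smooth muscle markers was called. Of 8 adipocyte markers only 3 passed the filter, and none of those was called. Their median log2 changes were -0.94 at 3 d and 1.39 at 10 d on folic acid, and -3.55 and -1.86 on control. What part any of these cell types had in the results above was not tested.

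Other mitochondrial and energy genes were listed for comparison. Each count below stands against 8.27% of all tested genes lower at 3 d and 11.7% at 10 d on folic acid, and 6.15% and 9.45% on control, with 6.07% and 10.2% higher on folic acid and 3.83% and 7.15% on control. Of the 43 tested assembly factors of the chain, 3 fell at 3 d and 1 at 10 d on folic acid, 1 and 0 on control, and 1 rose at 10 d on folic acid. The shares lower, 6.98% and 2.33% on folic acid and 2.33% and 0% on control, were all below those of all tested genes. Coa3, an assembly factor of complex IV, fell in 3 of the 4 comparisons (log2 -0.75 and -0.92 on folic acid at 3 d and 10 d, -0.76 on control at 3 d). Its control call was lost without control 3 d replicate 1 (adjusted p = 0.0603, edgeR). Of 12 electron carrier and ubiquinone genes, 1 fell at 3 d and 2 at 10 d on folic acid, 2 and 2 on control, and none rose. Cycs, cytochrome c, fell in all 4 (log2 -0.98 and -0.78 on folic acid, -1.20 and -0.53 on control), and Coq9, which is needed to make ubiquinone, fell in 3 of 4 (-0.89 on folic acid at 10 d, -0.82 and -0.62 on control). The control 10 d call of Cycs was lost without control intact replicate 1, 2 or 3 and without control 10 d replicate 3 or 4, at adjusted p values of up to 0.15.

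Of 76 tested proteins of the mitochondrial ribosome, 7 fell at 3 d and 6 at 10 d on folic acid, and 5 and 2 on control, while 1 and 4 rose at 10 d on folic acid and control. Its shares lower were near or below those of all tested genes, at 9.21% and 7.89% on folic acid and 6.58% and 2.63% on control. Mrpl17, of the large subunit, fell in all 4 comparisons (log2 -0.90 and -1.23 on folic acid, -1.06 and -0.77 on control). Of 27 import genes, 5 fell at 3 d and 6 at 10 d on folic acid, and 3 and 1 on control, with 1 and 2 that rose on control. The shares lower were 18.5% and 22.2% on folic acid and 11.1% and 3.7% on control, the last below that of all tested genes. Timm23, the channel of the inner membrane, fell in all 4 (-0.64 and -0.76 on folic acid, -0.68 and -0.47 on control), with the control 3 d call lost without control 3 d replicate 3 (adjusted p = 0.0955, edgeR).

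Of 17 genes of glycolysis, 5 fell at 3 d and 7 at 10 d on folic acid and 4 and 4 on control, and 1 rose at 10 d on folic acid, which is 29.4% and 41.2% lower on folic acid and 23.5% and 23.5% on control. Pgk1 fell in all 4 (log2 -0.76 and -0.91 on folic acid, -0.73 and -0.69 on control), and Hk2, hexokinase 2, in 3 of 4 (-0.96 on folic acid at 10 d, -0.64 and -0.69 on control). Of 21 tested regulators of mitochondrial genes, 2 rose at 3 d and 5 at 10 d on folic acid and 1 and 3 on control, while 0 and 0 fell on folic acid and 1 and 2 on control. The shares higher were 9.52% and 23.8% on folic acid and 4.76% and 14.3% on control. Gabpb1 and Gabpa, partners in the GABP factor, rose at 10 d on folic acid (log2 0.63 and 0.85). Gabpb1 also rose at both times on control (0.86 and 0.85). Gabpa rose at 3 d on folic acid (0.57), a call that 6 libraries, left out in turn, each ended (adjusted p up to 0.171, edgeR). Yy1 rose there too, and Peo1 at 10 d on folic acid. Nrip1 fell at 3 d on control. The Yy1 call was lost without folic acid 3 d replicate 1, 2 or 4 or folic acid intact replicate 1, 2 or 4 (adjusted p up to 0.104, edgeR). That of Nrip1 at 3 d was lost without control 3 d replicate 1, 3 or 4 or control intact replicate 1, 2 or 3 (up to 0.138). Gabpa overlaps Atp5j on the other strand by 701 bases, so reads of the pair cannot be told apart if strand was not used. Of 13 tested hypoxia genes, 1 fell in each comparison, which was Vegfa (log2 -1.02 and -1.67 on folic acid, -1.01 and -1.90 on control), while 1 and 3 rose on folic acid and 0 and 1 on control. The 1 of 13 is 7.69%, near or below the share of all tested genes. The control 3 d call of Vegfa was lost without control 3 d replicate 4 (adjusted p = 0.066, edgeR). Kdm3a rose at both times on folic acid (log2 0.93 and 1.05) and at 10 d on control (0.47). Its control call was lost on leaving out each of 7 libraries in turn (adjusted p up to 0.105, edgeR).

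**Figure D5:**
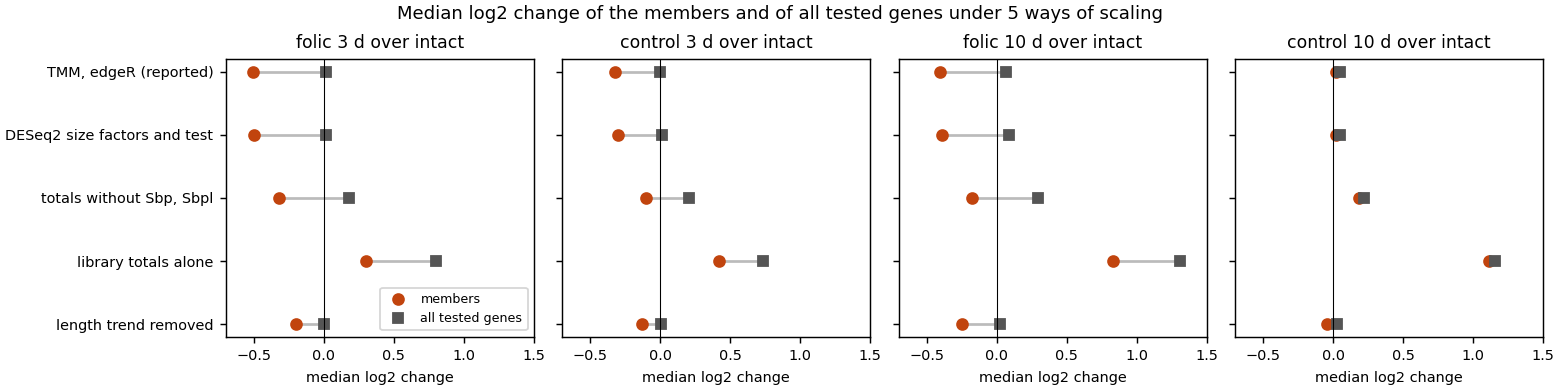
Median log2 change, castrated over intact, of the members (orange circles) and of all tested genes (grey squares) under 5 ways of scaling or fitting. With library totals alone both medians are positive in all 4 comparisons, and in every panel and setting the members lie to the left of all tested genes.

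The sign of the changes depended on what the libraries were scaled to, while the members' median stayed below that of all tested genes in each of the 5 settings plotted. With library totals alone, the members' median log2 change was 0.30 at 3 d and 0.83 at 10 d on folic acid, and 0.42 and 1.11 on control. All tested genes then had medians of 0.80 and 1.31 on folic acid and of 0.73 and 1.16 on control. The members' median less that of all tested genes lay, over all settings run, between -0.63 and -0.20 at 3 d on folic acid, -0.38 and -0.14 at 3 d on control, -0.60 and -0.27 at 10 d on folic acid, and -0.22 and 0.08 at 10 d on control.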

How the data were processed

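The submitters' processing notes list RSEM 1.2.3, Bowtie 0.12.9, bcl2fastq 2.17.1.14 and mm10. Expected counts (estimated reads per gene, not scaled) were deposited by the authors, and they were rounded. Poly-A selection and random hexamers are named in the labels' protocols, whereas strand setting and annotation were not stated in the labels. Of the columns, 1 matched no sample label and was not used, and there was no mitochondrially encoded gene of the 13 looked for. In R 4.3.3, edgeR 4.0.16 (filterByExpr with minimum count 10 and total 15, TMM, robust quasi-likelihood fit) fitted all 23 libraries as 6 groups and tested 12 comparisons. CPM uses TMM library sizes, and SD is over libraries. DESeq2 1.42.0, other scalings, a replicate block and leaving out libraries were alternatives. Lengths and positions are from GENCODE M21 (GRCm38), the median over coding transcripts, for 85 of 86 members. Of the members, 20 overlap another gene of the table on the other strand. Members, lists and tests were chosen with earlier results of these data known. Members named were those with the smallest p per complex and comparison, 15 fixed names, and up to 2 called genes per list, others after their values were seen. The values of 1 member are not reported here.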

Additional observations from a re-analysis of the deposited data

Results flagged for a closer look

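A measure in a group of 4 libraries was examined 115 times. In 9 of these a library's gap to the nearest other was large for the group's range. Chance gives about 1 in 20 for a single one. Many of the measures are sums or parts of one another, so the 115 are not independent. Control 10 d replicate 2 accounts for 4 of the 9. Members took 1.19% of its counts, 1.31% of its counts outside Sbp and 8760 CPM in sum, and Cox4i1 was at 475 CPM there. The remaining 5 are single members in other libraries. Ndufa1 was low in folic acid 3 d replicate 4, at 12.8 CPM. Atp5e was high in folic acid 3 d replicate 2, at 21.7 CPM. Sdha was high in folic acid 3 d replicate 3, at 350 CPM, and Ndufa5 in folic acid 10 d replicate 3, at 292 CPM. Atp5b was low in control intact replicate 4, at 692 CPM. Without the library named, the log2 change was -2.05 for Ndufa1, -1.24 for Atp5e and 0.30 for Sdha at 3 d on folic acid, and -0.37 at 3 d and -0.26 at 10 d for Atp5b on control. For Cox4i1 at 10 d on control it was -0.54 (adjusted p = 0.0483, edgeR) without that library and -0.26, not called, with it.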

How the results depend on the processing

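Depth limited the isoforms below the filter, and 2 of the added settings, totals without Sbp and Sbpl and the removed length trend, were chosen after seeing the data. Counts below are of members lower or higher. The share of all tested genes called was counted in the main fit alone, so none stands beside these counts. With library totals alone the median of all tested genes was itself positive in each castration comparison, and above that of the members. With library totals alone, members lower and higher numbered 2 and 22 at 3 d on folic acid, 1 and 23 at 3 d on control, 1 and 62 at 10 d on folic acid, and 0 and 73 at 10 d on control, while 31 on folic acid and 41 on control were higher at 10 d than at 3 d. With totals without Sbp and Sbpl they numbered 16 and 2 at 3 d on folic acid, 6 and 2 at 10 d on folic acid, and 1 and 5 at 10 d on control, with 5 lower at 3 d on control. With the length trend removed 13 were lower and 2 higher at 3 d on folic acid, and 6 were lower at 10 d on control. With only the groups compared in the fit, 17 were lower at 3 d on control and 14 at 10 d on folic acid, 1 was higher at 10 d on control, and 0 were higher at 3 d or 10 d on folic acid. With no filter on low counts 0 were higher at 3 d on folic acid. DESeq2 called 3 higher at 10 d than at 3 d on control. Without 4 libraries (control intact 2, folic acid intact 3, folic acid 10 d 2 and 3), 5 were lower at 10 d on folic acid, 1 was lower at 10 d on control, and 0 were higher at 3 d or 10 d on folic acid. No label sets these 4 libraries apart, and, like the tests, they were chosen with earlier results of these data known. The cause of these shifts was not tested.

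Leaving out each library in turn, members lower ranged from 11 to 30 at 3 d and from 11 to 32 at 10 d on folic acid, and from 3 to 12 at 3 d and from 1 to 8 at 10 d on control. Members higher ranged from 0 to 1 at 3 d and at 10 d on folic acid, at 10 d on control, and for 10 d against 3 d on control. Without one library, log2 changes of members that were not called changed sign. On control at 10 d, Cox6a1 ranged from -0.13 to 0.18, Cox7a2 from -0.16 to 0.36, Cox7a2l from -0.227 to 0.078, Cox8a from -0.059 to 0.202, Cyc1 from -0.14 to 0.24 and Ndufa4 from -0.29 to 0.20. On control at 3 d, Cox7a2l ranged from -0.236 to 0.047 and Sdha from -0.067 to 0.267.

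With library totals alone the log2 changes that turned positive at 3 d on folic acid were Sdhb 0.048, Cox4i1 0.041, Cox6a1 0.16, Cox7a2 0.15, Cox7a2l 0.54, Cox8a 0.13, Atp5b 0.35, Cyc1 0.19, Coa3 0.026, Timm23 0.15, Pgk1 0.017 and Pgam1 0.17. At 3 d on control they were Cox4i1 0.18, Cox6a1 0.31, Cox7a2 0.52, Cox7a2l 0.68, Cox8a 0.43, Atp5b 0.42, Cyc1 0.46, Uqcrfs1 0.065, Timm23 0.068, Pgk1 0.004 and Pgam1 0.079. At 10 d on folic acid they were Sdhb 0.57, Uqcrfs1 0.13, Cox5a 0.074, Atp5o 0.55, Cox4i1 0.62, Cox6a1 0.68, Cox7a2 0.62, Cox7a2l 1.03, Cox8a 1.05, Ndufa4 0.71, Atp5b 0.80, Cyc1 0.64, Coa3 0.33, Coq9 0.33, Cycs 0.44, Timm17b 0.11, Timm23 0.49, Pgk1 0.32, Hk2 0.29, Mrpl17 0.029 and Mrps7 0.16. At 10 d on control they were Uqcrfs1 0.51, Atp5g1 0.41, Cox4i1 0.83, Cox7a2l 1.06, Atp5b 0.90, Coq9 0.49, Cycs 0.56, Pgk1 0.41, Hk2 0.43 and Mrpl17 0.33. With totals without Sbp and Sbpl, Cox7a2l gave 0.15 at 3 d on control, 0.0 at 10 d on folic acid and 0.13 at 10 d on control, and Cox8a gave 0.044 at 10 d on folic acid. With the length trend removed, Cox7a2l gave 0.001 at 3 d on folic acid and 0.11 at 3 d on control, Cox7a2 0.058 and Cox8a 0.02 at 3 d on control, Cox8a 0.06 at 10 d on folic acid and Ndufa4 -0.034 at 10 d on control. Without the 4 libraries Cox7a2l gave 0.007 at 10 d on control.

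The replicate numbers showed no clear sign of pairing the libraries. Deviations of same-numbered libraries correlated at -0.149 to 0.237 (median 0.013), and those of different-numbered ones at -0.195 to 0.193 (median -0.01). Of 23 libraries, 7 correlated best with their own number. These correlations are no test of a shared litter or batch. With the replicate block, members lower numbered 25 at 3 d and 22 at 10 d on folic acid and 10 and 3 on control, and the only call it changed among named members was that of Cyc1 at 10 d on folic acid (adjusted p = 0.054, edgeR).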
